A study of Mus musculus with 14 samples.

Results

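The genes described here are 8 partners and cofactors of the SCL complex, the assembly built around the transcription factor SCL (encoded by Tal1) in blood and endothelial precursors: Lmo2, Ldb1, Lyl1, Tcf3, Tcf12, Gata1, Zfpm1 and Cbfa2t3. They were chosen by name as known partners, with the factors that the cells were made to express left out. This choice of genes used no measured value, but earlier results of these data were known when it was made. The choice of probe set did use the measured signal, induced arrays included. Each was read from a probe set annotated with that gene alone, and where a gene had several, from the one of highest mean over the 14 arrays. All 8 were measured, out of 19938 genes in all, and no filter on low signal was applied. Cbfa2t3 had a second such probe set, so the 8 genes had 9 probe sets between them.

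The cells were mouse embryonic stem cells that differentiated as embryoid bodies, floating aggregates that form mesoderm and, from it, the earliest blood and endothelial cells. Doxycycline at 1 µg/ml, added from day 2 to day 3 of differentiation, switched on GATA2, ER71 (the product of Etv2) and also Scl, the last as the titles and genotypes of the samples have it. The design text speaks of 3 factors but lists only ER71/Etv2 and GATA2. Induced cells, with the genotype given as co-expression of ER71/Etv2, GATA2 and Scl, were sampled at day 2.25 after 6 h (1 array), at day 2.5 after 12 h (3 arrays) and at day 3 after 24 h (3 arrays). Each had a control of the same day without doxycycline (1, 3 and 3 arrays), whose genotype the labels give as wild-type although its source is the same inducible line. Replicates 1 and 2 came from the line iEGS and replicate 3 from the line iB1, both kept on PMEF feeder cells before differentiation. The sources used here give neither the strain, nor the number of clones behind each line, nor what iB1 carries beyond that genotype. No array of cells given doxycycline without the factors was analysed here, so what doxycycline does by itself is part of each induction effect. The design text speaks of independent experiments, and nothing says whether those of 1 line came from separate thawings or clones.

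In blood precursors, SCL pairs with an E protein such as E2A (encoded by Tcf3) or HEB (encoded by Tcf12), and the pair binds E-box sequences in DNA. LMO2, a small protein made of LIM domains that does not bind DNA itself, bridges this pair to a GATA factor and to LDB1, a dimerizing protein that can bring distant enhancers and promoters together. ETO2 (encoded by Cbfa2t3) is a corepressor that joins the complex, and FOG1 (encoded by Zfpm1) is a zinc finger cofactor that binds GATA factors. LYL1 is a close relative of SCL. The study asked which genes follow the induced factors as cells become hemangioblasts, precursors that give both blood and endothelial cells. The genes below encode known partners of the induced SCL and GATA2 or, for Lyl1, a relative of SCL.

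Values are log2 signals, so 1 unit is a 2-fold difference, and errors of changes are standard errors from limma. A gene is said to have risen or fallen where its adjusted p (limma, Benjamini-Hochberg over all 19938 genes) was under 0.05. After 12 h, 2 of the 8 genes rose (Lmo2 and Zfpm1) and 0 fell, where 0.813% of all genes were called higher and 0.577% lower. After 24 h, 4 of the 8 rose (Lmo2, Gata1, Zfpm1 and Lyl1) and 0 fell, where 2.03% of all genes were called higher and 3.43% lower. The median change of the 8 genes was 0.23 at 12 h and 0.53 at 24 h, beside a median over all genes of -0.01 and -0.00. All induced arrays lay above all control arrays for 3 of the 8 genes at 12 h and 4 of the 8 at 24 h, where 6.78% and 7.6% of all genes did so. They lay below all control arrays for 0 of the 8 at 12 h and 1 (Tcf12) at 24 h, without a share of all genes worked out. After 6 h, with 1 array on each side and no test, 1 of the 8 genes (Zfpm1) was at least 2-fold higher and 0 were 2-fold lower, where 0.221% of all genes were higher by that measure and 0.135% lower.

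**Figure D1:**
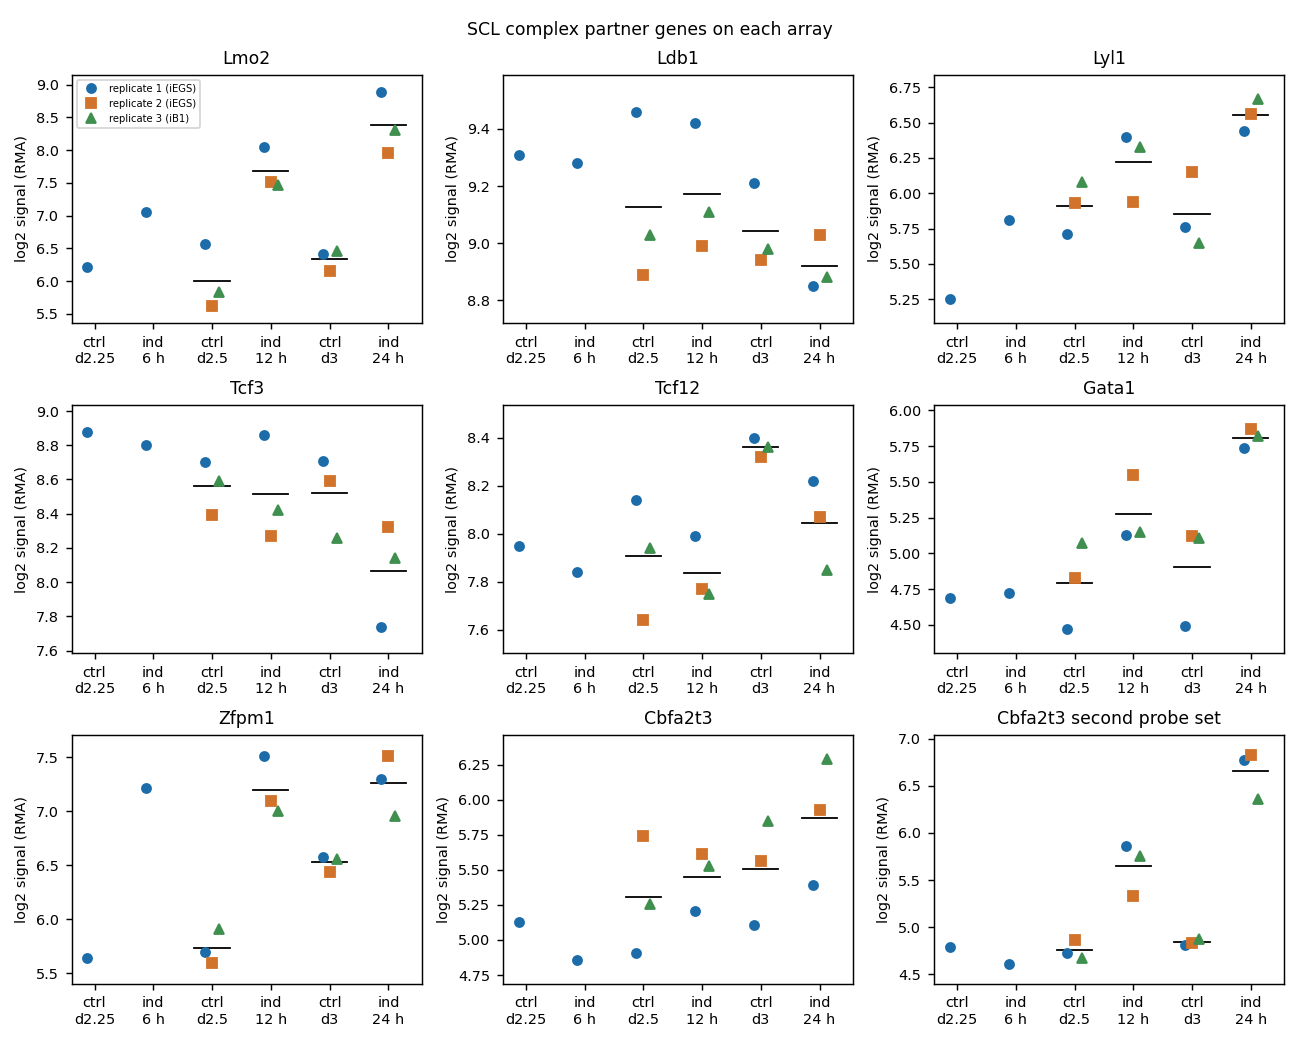
Log2 signal of each gene on each of the 14 arrays (y axis, a scale of its own in each panel) by group (x axis: ctrl, control; ind, induced; d, day), with a symbol for each replicate number and a bar at the mean of each group of 3. Lmo2, Zfpm1 and the second probe set of Cbfa2t3 lie clear of their controls at 12 h and 24 h, Gata1 and Lyl1 at 24 h, while the induced arrays of Ldb1 and Tcf3 overlap their controls at both times.

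Pairwise correlations between the 14 arrays were 0.951 to 0.995 and no pair held identical values. The array of induced 24 h replicate 3 correlated least with the other arrays on average (0.966, where all others were at 0.976 or more) and had the narrowest spread of values (SD 1.91, against 2.04 or more). The labels give the tissue as embryonic stem cell. Pluripotency genes differed widely in level. Pou5f1 and Tdgf1 had group means of 10.12 to 11.41 and 10.18 to 12.34, but Klf4 and Esrrb of 5.38 to 5.64 and 4.89 to 6.74. The induced factors' own probe sets were higher at 12 h by 4.44 ± 0.179 (Gata2), 3.11 ± 0.192 (Etv2) and 2.48 ± 0.239 (Tal1), and at 24 h by 3.95, 1.94 and 2.30. These probe sets do not tell the introduced copy from the cells' own gene. The mean log2 level of 8 endothelial markers was 5.19 to 5.50 on the 12 h arrays against 4.60 to 4.93 in their controls, and 6.06 to 6.62 on the 24 h arrays against 4.63 to 4.85. Of these 8 markers, 3 rose at 12 h (Cdh5, Tek and Esam) and 4 at 24 h, with Tie1. Fewer cells of a type and less RNA per cell cannot be told apart in such bulk samples, and the part that the share of endothelial cells had in the changes below was not tested.

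Of 7 erythroid and globin markers 0 rose or fell (limma; also 0 at an unadjusted p under 0.05 at either time), and their mean level at 24 h was 4.11 to 4.51 against 4.11 to 4.24 in the controls. The embryonic globin Hbb-bh1 stood at 2.87 after 24 h and 2.88 in the controls. The mean signals of these 7 markers lay between the 5.9th (Hbb-bh1) and the 43.3rd percentile (Alas2) of all genes. Array values understate changes at such low signals, so a small rise could have been missed. Of 7 megakaryocyte and mast cell markers 1 rose at 24 h (Pf4; list mean 4.44 to 4.52 against 4.01 to 4.24), and of 8 white blood cell markers Spi1 rose at both times (24 h list mean 4.00 to 4.27 against 3.71 to 3.80). Of 10 fibroblast feeder markers 1 rose at 24 h (Thy1; list mean 4.65 to 5.01 against 4.53 to 4.79). Of 9 pluripotency markers 2 fell at 12 h (list mean 8.18 to 8.63 against 8.58 to 9.01) and 4 at 24 h (7.32 to 8.03 against 8.23 to 8.64). Of 9 primitive streak and mesoderm markers 4 fell at 12 h (6.03 to 6.35 against 6.55 to 6.95), while Kdr, a receptor gene of mesoderm and endothelium, rose (1.96 ± 0.264, adjusted p = 0.000787), and 8 fell at 24 h (5.71 to 6.04 against 7.90 to 8.16). Between the controls 5 of these 9 rose (median change 1.13), and between 12 h and 24 h of induction 1 fell (median change -0.22). Their part in the changes of the 8 genes was not tested either.

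Promoters of 3 genes that rose and of Cbfa2t3, whose probe sets differed, are shown so that some of the letters read by the induced factors' families can be seen next to the values. They are from RefSeq on GRCm38.p6 and run from 250 bases before to 50 bases after a start site, 300 bases each, 5′ to 3′ along the gene's strand. Entries were found for 7 of the 8 genes (not Lmo2), 12 promoters in all. Capitals mark the E-box CANNTG, the GATA motif (AGATAA, also with T as the first letter and with G as the last) and the ETS motif CNGGAA, each searched on both strands. The lines below give Lyl1 (chr8:84701207-84701506, plus strand), Gata1 (chrX:7967861-7968160, minus), Zfpm1 (chr8:122281891-122282190, plus) and both start sites of Cbfa2t3, the upstream (chr8:122699060-122699359, minus) and the downstream one (chr8:122678126-122678425, minus).
Lyl1: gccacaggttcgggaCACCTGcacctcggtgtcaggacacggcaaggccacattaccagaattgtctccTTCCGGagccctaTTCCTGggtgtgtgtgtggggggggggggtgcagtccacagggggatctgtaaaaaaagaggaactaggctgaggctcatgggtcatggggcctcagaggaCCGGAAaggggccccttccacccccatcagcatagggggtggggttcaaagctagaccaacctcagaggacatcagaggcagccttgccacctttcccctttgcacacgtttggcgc
Gata1: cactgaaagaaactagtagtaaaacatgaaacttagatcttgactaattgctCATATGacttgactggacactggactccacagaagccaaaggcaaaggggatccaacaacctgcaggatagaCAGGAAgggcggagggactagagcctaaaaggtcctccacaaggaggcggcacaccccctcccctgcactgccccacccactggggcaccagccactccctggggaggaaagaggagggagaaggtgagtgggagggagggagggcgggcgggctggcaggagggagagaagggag
Zfpm1: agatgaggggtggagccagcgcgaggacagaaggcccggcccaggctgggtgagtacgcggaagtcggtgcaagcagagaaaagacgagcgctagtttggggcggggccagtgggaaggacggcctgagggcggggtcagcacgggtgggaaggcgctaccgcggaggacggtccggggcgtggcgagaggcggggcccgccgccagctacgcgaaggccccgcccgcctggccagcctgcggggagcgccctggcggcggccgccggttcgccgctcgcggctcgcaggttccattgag
Cbfa2t3 upstream: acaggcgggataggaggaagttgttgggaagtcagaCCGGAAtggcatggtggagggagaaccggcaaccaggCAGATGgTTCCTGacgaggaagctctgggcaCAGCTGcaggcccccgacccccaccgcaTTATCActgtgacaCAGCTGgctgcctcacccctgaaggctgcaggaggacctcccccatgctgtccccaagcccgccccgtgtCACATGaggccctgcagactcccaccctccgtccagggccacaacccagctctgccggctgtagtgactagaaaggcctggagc
Cbfa2t3 downstream: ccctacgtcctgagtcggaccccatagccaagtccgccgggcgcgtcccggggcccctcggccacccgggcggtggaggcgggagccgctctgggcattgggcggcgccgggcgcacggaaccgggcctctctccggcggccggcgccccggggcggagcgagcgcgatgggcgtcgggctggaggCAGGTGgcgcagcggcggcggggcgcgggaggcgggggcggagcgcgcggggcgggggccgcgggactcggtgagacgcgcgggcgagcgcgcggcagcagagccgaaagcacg

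Lyl1 held 1 E-box and 3 ETS matches, the latter beginning at -181, -168 and -67 from the start site. Gata1 held 1 E-box and 1 ETS match, and the Zfpm1 window held no match to any of these motifs as written. The ETS motif used asks for a C and any base before GGAA. GGAA after other letters, such as gcggaa in the Zfpm1 window and gaggaa in the upstream Cbfa2t3 window, is therefore left unmarked. The upstream promoter of Cbfa2t3 held 4 E-boxes, 2 ETS matches and 1 GATA match (TTATCA, on the other strand), and the downstream one held 1 E-box. The upstream Cbfa2t3 window also held 1 composite arrangement, TATCACTGTGACACAG from -117, in which CTG and GATA lie 9 bases apart on the other strand (7 to 9 were allowed, on either strand). This arrangement overlaps the GATA match and the third E-box. Among all 32851 promoters of the same length, 72.3% held an E-box, 29.8% a GATA motif, 61.7% an ETS motif and 7.18% the composite, so an E-box or an ETS match is found in most promoters. The promoters not shown are of Ldb1, Tcf3 and Tcf12, genes that were not called on induction. The Ldb1 window at chr19:46037021-46037320 (minus strand) held 2 E-boxes, 2 GATA matches and 1 ETS match. The other Ldb1 windows held 0 E-boxes, 0 GATA matches and at most 1 ETS match. Tcf3 held 1 E-box and 2 ETS matches, and the Tcf12 windows held 1 or 2 E-boxes and 0 GATA or ETS matches. A match here describes letters and was not measured as a binding site.

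Lmo2 (probe set 10474201, NCBI gene 16909), the LIM bridge of the complex, showed the largest rise of the 8 genes at both times. Its log2 signal was 6.56, 5.62 and 5.84 in the day 2.5 controls (replicates 1 to 3) and 8.05, 7.52 and 7.46 after 12 h. It was 6.42, 6.15 and 6.46 in the day 3 controls and 8.89, 7.96 and 8.30 after 24 h. At both times each induced array was above every control array, and replicate 1 was the highest of the induced ones. Lmo2 rose by 1.67 ± 0.264 at 12 h (3.19-fold, adjusted p = 0.00292) and by 2.04 ± 0.264 at 24 h (4.11-fold, adjusted p = 0.000182), higher in 3 of 3 same-number pairs each time. The single 6 h array stood at 7.05 against 6.22 in its control, a difference of 0.83. The order of the group means was day 2.5 control (6.00, SD 0.492), day 3 control (6.34, SD 0.171), 12 h (7.68, SD 0.322) and 24 h (8.38, SD 0.475). The controls did not differ beyond their spread (0.34 ± 0.264, adjusted p = 1), and the arrays of 12 h and 24 h overlapped (0.70 ± 0.264, adjusted p = 0.266). The step from 12 h to 24 h was called once replicate was blocked on (0.70, adjusted p = 0.0219). The 12 h rise lost its call without replicate 2 of all groups (1.56, adjusted p = 0.106) or without replicate 3 (1.70, adjusted p = 0.126).

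Ldb1 (probe set 10468159, NCBI gene 16825), the dimerizing partner of LMO2, was not called in any comparison. It read 9.46, 8.89 and 9.03 in the day 2.5 controls, 9.42, 8.99 and 9.11 after 12 h, 9.21, 8.94 and 8.98 in the day 3 controls and 8.85, 9.03 and 8.88 after 24 h. The single arrays of day 2.25 read 9.31 (control) and 9.28 (6 h). The induced arrays overlapped the controls at both later times, and replicate 1 was the highest array in every group but the last. The change was 0.05 at 12 h (95% interval -0.32 to 0.41, adjusted p = 0.999) and -0.12 at 24 h (-0.49 to 0.24, adjusted p = 0.773). A 2-fold change lies outside both intervals.

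Lyl1 (probe set 10573419, NCBI gene 17095), the relative of SCL, read 5.71, 5.93 and 6.08 in the day 2.5 controls and 6.40, 5.94 and 6.33 after 12 h. It read 5.76, 6.15 and 5.65 in the day 3 controls and 6.44, 6.56 and 6.67 after 24 h. The arrays overlapped at 12 h, where replicate 2 was level with its control, and lay apart at 24 h. The 12 h difference of 0.32 ± 0.171 did not pass the test (adjusted p = 0.876, 95% interval -0.05 to 0.69). At 24 h Lyl1 rose by 0.71 ± 0.171 (1.63-fold, adjusted p = 0.0244), higher in 3 of 3 pairs, from 0.42 in replicate 2 to 1.02 in replicate 3. At 6 h the pair of arrays read 5.81 and 5.25, and against replicate 1 of the day 2.5 controls the 6 h difference was 0.10. The 24 h call was lost without replicate 2 (0.85, adjusted p = 0.0876) or replicate 3 (0.55, adjusted p = 0.396) of all groups, and without single arrays: day 3 control replicate 1 (adjusted p = 0.108) or 3 (0.121) and induced 24 h replicate 2 (0.0756) or 3 (0.0747). It was also lost when only the compared groups were fitted (adjusted p = 0.0754) and with array weights (0.473).

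The E proteins, the DNA-binding partners of SCL, did not pass the test in either induction comparison. Tcf3 (probe set 10370837, NCBI gene 21423) read 8.70, 8.39 and 8.59 in the day 2.5 controls and 8.86, 8.27 and 8.42 after 12 h. It read 8.71, 8.59 and 8.26 in the day 3 controls and 7.74, 8.32 and 8.14 after 24 h. The day 2.25 control read 8.88 and the 6 h array 8.80. The 24 h arrays overlapped the controls, and replicate 1 was the lowest array of all. The difference was -0.04 at 12 h (adjusted p = 0.999) and -0.45 ± 0.194 at 24 h (adjusted p = 0.256), with a 95% interval from -0.87 to -0.04 that is not adjusted for the number of genes. The 24 h differences by pair were -0.97, -0.27 and -0.12.

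Tcf12 (probe set 10594879, NCBI gene 21406) read 8.14, 7.64 and 7.94 in the day 2.5 controls and 7.99, 7.77 and 7.75 after 12 h. It read 8.40, 8.32 and 8.36 in the day 3 controls and 8.22, 8.07 and 7.85 after 24 h. Its 6 h array, at 7.84, was close to its control at 7.95. All 24 h arrays lay below the day 3 controls, and all day 3 controls lay above the day 2.5 controls. The share of all genes with such gaps was not worked out. Neither difference passed the test: -0.31 ± 0.154 at 24 h (adjusted p = 0.341) and 0.45 ± 0.154 between the controls (adjusted p = 0.364). With array weights the difference between the controls was called (0.42, adjusted p = 0.0149). At 12 h the difference was -0.07 (95% interval -0.40 to 0.26).

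Gata1 (probe set 10603417, NCBI gene 14460), the GATA factor of red cells and platelet precursors, read 4.47, 4.83 and 5.07 in the day 2.5 controls and 5.13, 5.55 and 5.15 after 12 h. It read 4.49, 5.12 and 5.11 in the day 3 controls and 5.74, 5.87 and 5.82 after 24 h. The induced arrays lay above all controls at both times, narrowly at 12 h and by a clear gap at 24 h, where they also lay closest together. The 12 h difference of 0.49 ± 0.198 did not pass the test (adjusted p = 0.54), and replicate 3 contributed 0.08. At 24 h Gata1 rose by 0.90 ± 0.198 (1.87-fold, adjusted p = 0.013), with 1.25, 0.75 and 0.71 in the 3 pairs. At 6 h the arrays read 4.72 and 4.69. The control signals of Gata1 were below the median signal of all genes (5.56), a range in which array values understate changes. The 24 h call was lost without replicate 2 (0.98, adjusted p = 0.147) or 3 (1.00, adjusted p = 0.0887) of all groups, without day 3 control replicate 1 (0.69, adjusted p = 0.0731) or induced 24 h replicate 2 (0.87, adjusted p = 0.0545), and with array weights (0.81, adjusted p = 0.381).

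Zfpm1 (probe set 10576090, NCBI gene 22761), the gene of the GATA cofactor FOG1, was the 1 gene of the 8 that stood apart by 2-fold or more at 6 h. It read 5.64 in the day 2.25 control and 7.21 after 6 h, a difference of 1.57 between single arrays. It read 5.70, 5.60 and 5.91 in the day 2.5 controls and 7.51, 7.09 and 7.00 after 12 h, then 6.58, 6.44 and 6.56 in the day 3 controls and 7.30, 7.51 and 6.96 after 24 h. The induced arrays stayed at about the same level from 6 h on, while the day 3 controls lay above the day 2.5 controls on every array. Zfpm1 rose by 1.46 ± 0.173 at 12 h (2.76-fold, adjusted p = 0.000276) and by 0.73 ± 0.173 at 24 h (1.66-fold, adjusted p = 0.0202). The effect was smaller at 24 h in 3 of 3 pairs, by 0.73 ± 0.244, a difference that did not pass the test over all genes (limma, adjusted p = 0.478, where 0.426% of all genes were called). Between the controls Zfpm1 differed by 0.79 ± 0.173 (adjusted p = 0.0548, where 0.757% of all genes were called), and between 12 h and 24 h of induction by 0.06 ± 0.173 (adjusted p = 0.93, where 1.81% were called). The rise between the controls was called once replicate was blocked on (0.79, adjusted p = 0.0237).

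The 12 h rise of Zfpm1 kept its call under all 18 alternatives (adjusted p up to 0.0383), which was not so at 24 h. There the call was lost without replicate 2 of all groups (0.57, adjusted p = 0.421), without day 3 control replicate 1 (0.76, adjusted p = 0.0584), 2 (0.69, 0.0892) or 3 (0.75, 0.0605), and without induced 24 h replicate 2 (0.61, adjusted p = 0.102). It was also lost in a fit of the compared groups alone (adjusted p = 0.0634) and with array weights (0.62, adjusted p = 0.345).

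**Figure D2:**
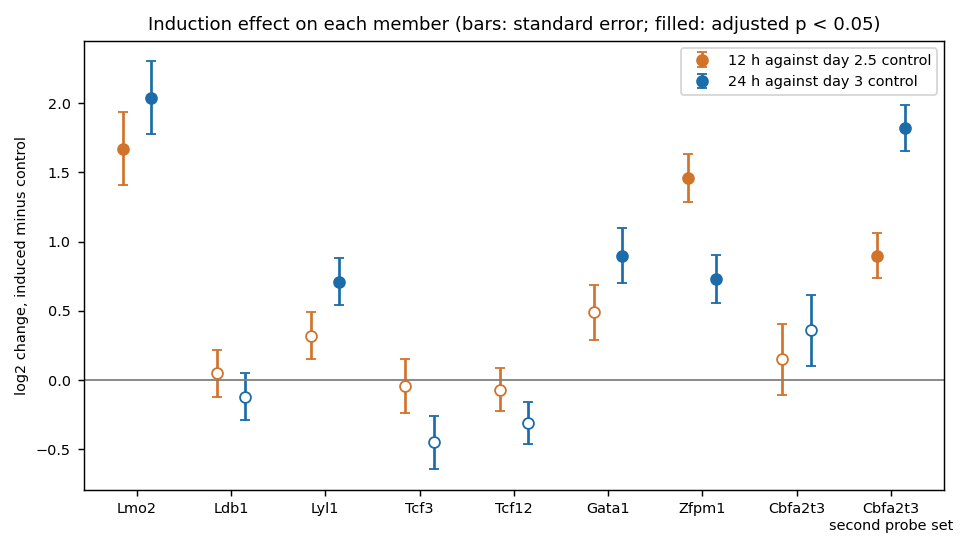
Log2 change, induced minus control of the same day (y axis), of each gene and of the second probe set of Cbfa2t3 (x axis) at 12 h and 24 h; bars are standard errors and filled points have an adjusted p under 0.05. Lmo2 is the highest at both times, Zfpm1 is the only gene whose 12 h effect (1.46) exceeds its 24 h effect (0.73) among those that rose, and Ldb1, Tcf3 and Tcf12 lie below 0 at 24 h.

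Cbfa2t3 (NCBI gene 12398), which encodes the corepressor ETO2, gave different answers from its 2 probe sets. The one of higher mean (10582427) read 4.91, 5.74 and 5.26 in the day 2.5 controls, 5.21, 5.61 and 5.53 after 12 h, 5.11, 5.56 and 5.85 in the day 3 controls and 5.39, 5.93 and 6.29 after 24 h. Its arrays overlapped at both times, replicate 1 was the lowest array in each group of 3, and at 6 h the induced array (4.86) was below its control (5.13). Its change was 0.15 ± 0.257 at 12 h (adjusted p = 0.999) and 0.36 ± 0.257 at 24 h (adjusted p = 0.549, 95% interval -0.19 to 0.91). By the rule that chose the probe sets, Cbfa2t3 is therefore counted as not called.

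The second Cbfa2t3 probe set (10582429), examined after it was seen to differ, read 4.73, 4.86 and 4.67 in the day 2.5 controls and 5.86, 5.33 and 5.76 after 12 h. It read 4.81, 4.83 and 4.87 in the day 3 controls and 6.77, 6.83 and 6.36 after 24 h. The controls lay within a narrow band and every induced array of 12 h and 24 h was above them. At 6 h it was not higher than its control (4.61 and 4.79). With each of the 21789 probe sets tested on its own, it rose by 0.90 ± 0.165 at 12 h (1.86-fold, adjusted p = 0.0137, where 0.716% of probe sets were called higher) and by 1.82 ± 0.165 at 24 h (3.53-fold, adjusted p = 1.42e-05, where 1.88% were). From 12 h to 24 h of induction it rose by a further 1.01 ± 0.165 (2.01-fold, adjusted p = 0.00763). The effect was larger at 24 h than at 12 h by 0.92 ± 0.233, which did not pass the test (adjusted p = 0.195). With the mean of both probe sets standing for the gene, Cbfa2t3 was called at 24 h (1.09, adjusted p = 0.000529).

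Leaving out arrays ended some of the calls of this second Cbfa2t3 probe set. The 12 h call was lost without replicate 1 (0.78, adjusted p = 0.143), 2 (1.11, 0.0847) or 3 (0.80, 0.311) of all groups and without induced 12 h replicate 1 (0.79, 0.0872) or 3 (0.84, 0.0851). The step from 12 h to 24 h was lost without replicate 2 (0.76, adjusted p = 0.315) or 3 (1.21, 0.0819), while the 24 h call held in each such fit (adjusted p up to 0.00415). Which transcripts of Cbfa2t3 each probe set reads was not tested, and the gene has both start sites shown above.

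**Figure D3:**
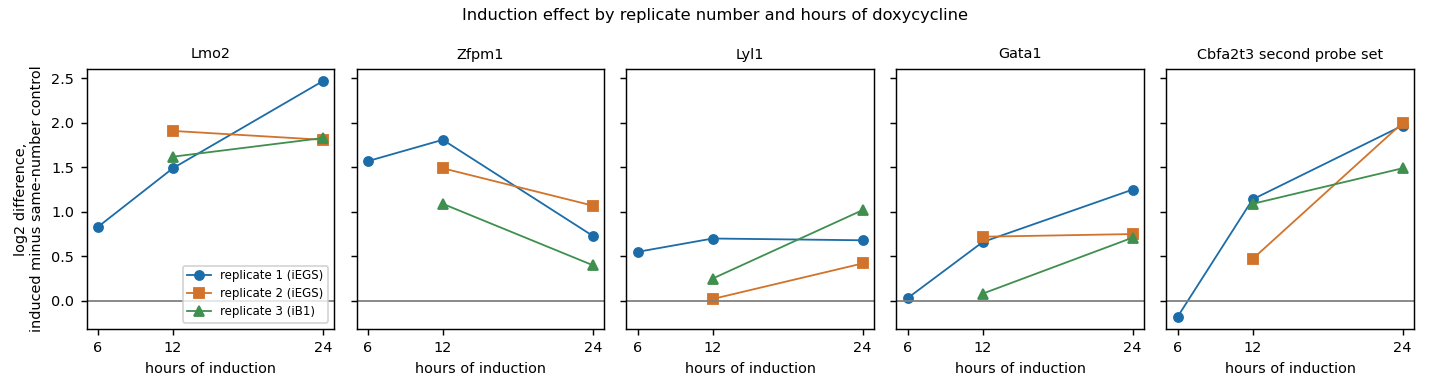
Difference in log2 signal between the induced and the control array of the same replicate number and day (y axis) against hours of induction (x axis: 6, 12 and 24 h; 6 h for replicate 1 only), for the genes that rose and the second probe set of Cbfa2t3. The difference for Zfpm1 is smaller at 24 h than at 12 h in every replicate, the Cbfa2t3 probe set goes from -0.18 at 6 h in replicate 1 to between 1.49 and 2.00 at 24 h, and Lmo2 is at 0.83 at 6 h and at 1.81 or above at 24 h.

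Between the lines, with group in the fit, 0 of the 8 genes differed between iB1 and iEGS, where 0% of all genes were called (limma, 1528 of 19938 genes at an unadjusted p under 0.05 and 0 of the 8 members). iB1 is replicate 3 alone, so line and replicate cannot be told apart. The induction effect of Zfpm1 was lower in iB1 than in iEGS by 0.53 ± 0.228 on the log2 scale, which did not pass the test over all genes (adjusted p = 0.943). In each of the comparisons of the effect over time, of the controls and of the induced groups, 0 of the 8 genes were called (limma). At an unadjusted p under 0.05 there were 1 (Zfpm1), 2 (Tcf12 and Zfpm1) and 3 (Gata1, Lmo2 and Tcf3), where 1139, 1307 and 2410 of all 19938 genes passed the same threshold.

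Relatives of the complex's members, from lists drawn up with results of these data already known, moved in both directions. Among 8 other bHLH, E protein and Id genes, Tal2, a close relative of Tal1, rose at 12 h (1.76 ± 0.231, adjusted p = 0.000632) and 24 h (1.83 ± 0.231, adjusted p = 0.000149). Id2, an inhibitor that binds E proteins and keeps them off DNA, rose at 24 h (1.54 ± 0.174, adjusted p = 5.37e-05), and 0 genes of this list fell on induction. Id2 itself fell between the controls (-0.81 ± 0.174, adjusted p = 0.0472), so its day 3 control is the lower one. Tcf4, the remaining E protein gene, differed by -0.51 ± 0.156 at 24 h without passing the test (adjusted p = 0.0859). The list's median change was 0.18 at both times. The 12 h call of Tal2 was lost without replicate 2 (1.83, adjusted p = 0.0506) or 3 (1.65, adjusted p = 0.0615) of all groups.

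Among 8 other LIM, LDB and SSBP genes 0 rose, while 1 fell at 12 h and 3 at 24 h. Ldb2, the paralogue of Ldb1, fell by 1.64 on the log2 scale at 12 h (adjusted p = 8.83e-05) and fell by 1.50 at 24 h (adjusted p = 5.37e-05). Lmo1 and Lmo4, relatives of Lmo2, changed by -1.21 ± 0.226 (adjusted p = 0.00405) and -0.56 ± 0.146 (adjusted p = 0.0351) at 24 h. Lmo2 is thus the 1 measured LMO gene that rose at 24 h, beside 2 that fell and Lmo3, which did not pass the test (-0.12 ± 0.192, adjusted p = 0.809). The Lmo4 call was lost under 11 alternatives (adjusted p up to 0.35) and the Lmo1 call without replicate 2 (adjusted p = 0.0735). The list's median change was -0.12 at 12 h and -0.14 at 24 h.

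Of 5 other GATA and FOG genes 0 were called at 12 h (limma; 1, Gata6, at an unadjusted p under 0.05) and 1 at 24 h. Gata4, a factor of endoderm and heart mesoderm, rose between the controls of day 2.5 and day 3 (1.61 ± 0.169, adjusted p = 0.000322) and was lower after 24 h of induction than in the day 3 controls (-1.60 ± 0.169, adjusted p = 2.84e-05). Gata6 likewise rose between the controls (1.63 ± 0.215, adjusted p = 0.00171), and its 24 h difference was -0.49 ± 0.215 (adjusted p = 0.278). Of 18 corepressor and coactivator genes, which include Kdm1a and the histone deacetylase genes Hdac1, Hdac2 and Hdac3, 0 were called at 12 h (2 at an unadjusted p under 0.05, Cbfa2t2 and Gfi1b) and 1 at 24 h. This was Gfi1b, a repressor of the blood lineage that recruits Kdm1a, which rose by 1.65 ± 0.159 (adjusted p = 1.19e-05). With replicate as a block Gfi1b was called at 12 h too (0.57, adjusted p = 0.0318, against 0.14 without the block). Kdm1a itself differed by -0.07 and -0.18.

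The 3 factors known to share blood enhancers with SCL all rose at both times. Fli1, an ETS factor, rose by 2.85 ± 0.170 at 12 h (7.21-fold, adjusted p = 6.86e-07) and by 4.27 ± 0.170 at 24 h (19.3-fold, adjusted p = 4.5e-09). Runx1, needed for blood stem cells to form, rose by 1.15 ± 0.188 (adjusted p = 0.00383) and 1.72 ± 0.188 (adjusted p = 3.85e-05), and Erg, another ETS factor, by 0.85 ± 0.191 (adjusted p = 0.0405) and 1.52 ± 0.191 (adjusted p = 0.00015). At 12 h the call of Runx1 was lost without replicate 2 (1.13, adjusted p = 0.235) or 3 (1.16, adjusted p = 0.0652) of all groups, and that of Erg under 9 alternatives (adjusted p up to 0.395).

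**Figure D4:**
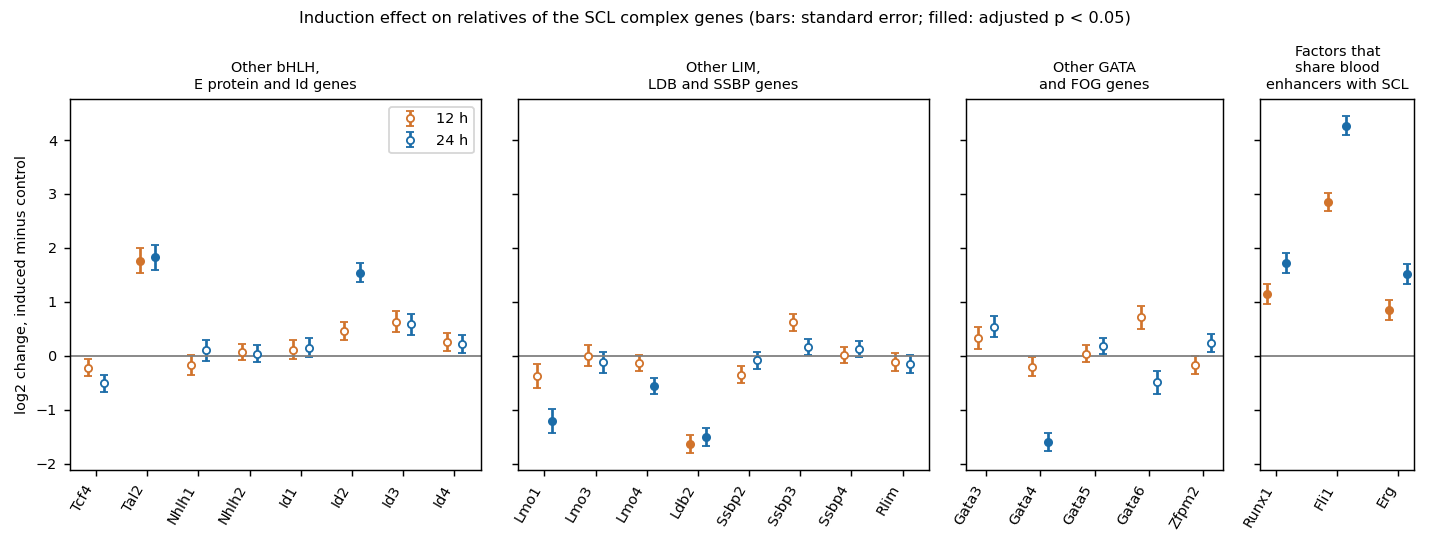
Log2 change, induced minus control of the same day (y axis), of the relatives of the 8 genes in 4 lists (panels) at 12 h and 24 h; bars are standard errors and filled points have an adjusted p under 0.05. Tal2 rises at both times and Id2 at 24 h, Ldb2 falls at both times, Gata4 is lower at 24 h (-1.60), and Fli1 reaches 4.27.

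Of 19 measured genes known as targets of the SCL complex, 3 rose at 12 h and 8 at 24 h, and 0 fell, with a median change of 0.13 and 0.24. At 12 h these were Hhex, a homeobox gene of blood and endothelial precursors (2.32 ± 0.213, adjusted p = 3.23e-05), the endothelial cadherin gene Cdh5 (1.16 ± 0.230, adjusted p = 0.0178) and the adhesion gene Icam2 (1.05 ± 0.219, adjusted p = 0.0259). At 24 h the rises ran from 0.59 ± 0.151 (Epor, the erythropoietin receptor gene, adjusted p = 0.0337) to 3.42 ± 0.230 (Cdh5, adjusted p = 4.72e-07). Between them were Icam2 (1.80), Nfe2, a bZIP gene of red cells and platelets (1.53), Hhex (1.48), the blood progenitor factor gene Myb (1.21), Nfatc1 (1.10) and the platelet chemokine gene Pf4 (1.07). Myb fell between the controls (-1.02 ± 0.167, adjusted p = 0.00797), so its induced arrays are set against a lower control at day 3. Hhex rose between the controls (1.22 ± 0.213, adjusted p = 0.0131), so its 24 h value is set against a higher one. Cdh5 is also on the endothelial marker list, and Pf4, Itga2b, Gp9 and Kit are on the megakaryocyte and mast cell list. All 7 measured erythroid and globin markers are on this target list too, so these lists do not give separate results. Those 7, Itga2b, Gp9 and Kit were called neither at 12 h nor at 24 h. The mean signal of Pf4 was low, at the 8.6th percentile of all genes. The 12 h calls of Cdh5 and Icam2 were each lost under 6 alternatives (adjusted p up to 0.46 and 0.34), the 24 h call of Epor under 9 (up to 0.363), and those of Myb and Nfatc1 without replicate 2 (adjusted p = 0.0585 and 0.195).

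For each gene that rose, the 3 genes most like it over the 14 arrays were found by Pearson correlation of log2 signals, given as a description since the arrays share lines, days and induction. For Lmo2 they were Elk3 (0.974), Gas6 (0.972) and Bmp6 (0.972). For Zfpm1 they were Igfbp4 (0.953), Sema3f (0.949) and Ablim1 (0.943). Gata1 was matched less closely, by Smim1 (0.929), Slc32a1 (0.929) and Acvrl1 (0.922), and Lyl1 by Asb9 (0.897), Vwa7 (0.897) and Psg20 (0.888). The 4 genes had no shared match among these 12, but with only 3 kept for each this does not show that their patterns differ. Each match was picked as the highest among all genes, and the correlation that such a search reaches with unrelated genes was not worked out.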

How the data were processed

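Total RNA of 14 embryoid body samples was amplified to biotinylated cDNA and read on 1 Affymetrix array each, per the labels' protocols. The deposited log2 values of 35556 probe sets are, per the submitters' processing notes, RMA values that the authors computed in Affymetrix Expression Console. The sources used here do not give the versions or the set of arrays normalized together. RMA brings arrays to a common distribution and compresses low signals. With no counts behind an array signal, precision is limited by how many arrays there are.

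By the platform annotation 21789 probe sets had 1 gene symbol, 1621 several and 12146 none. The RefSeq table of GRCm38.p6 held 21698 of the 21789 by gene identifier and changed 0 symbols. The probe set of highest mean stood for each of 19938 genes.

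The 12 arrays of the 4 groups of 3 entered 1 fit in limma 3.58.1 (R 4.3.3), with group means only and 8 residual and 6.05 prior degrees of freedom, with calls at an adjusted p under 0.05. The day 2.25 arrays were not tested. The script was tested on simulated data. Groups came from the sample labels.

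The genes and lists were chosen with earlier results of these data known. Named are the 8 genes, the induced factors, the called members of each list (at most 6) and the 3 genes most like each called gene. Epor and Pf4, the smallest of the 8 rises of the target list at 24 h, are named beyond those 6. They and other genes named (Tcf4, Lmo3, Gata6, Kdm1a, Cbfa2t2 and marker genes) were chosen after their values were seen.

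Same-numbered arrays shared deviations from their group means, with correlations over genes of 0.57, 0.34 and 0.26 (day 2.5) and 0.52, 0.16 and 0.26 (day 3). Arrays of different numbers gave -0.41 to 0.17 at day 2.5 and -0.53 to 0.38 at day 3. The 0.38, between control replicate 2 and induced replicate 3, was above the same-number values of replicates 2 and 3. The numbers were taken to pair samples within a day, but at day 3 the correlations bear this out only in part. Across days the correlations were 0.56, 0.22 and 0.04 for the controls and 0.51, -0.00 and 0.32 for the induced groups. Alternatives were the replicate block, a line term, quantile normalization again, median centring, genes under the 40th percentile of signal left out, the mean of a gene's probe sets, only the compared groups, all 14 arrays, array weights, and leaving out replicates or single arrays. Each probe set on its own and the interaction of line and induction were added after the data were seen.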

Additional observations from a re-analysis of the deposited data

Results flagged for a closer look

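A signal appeared in a measurement that the comparisons of the 8 genes do not use. The second probe set of Cbfa2t3, set aside by the rule of highest mean, was higher after induction by 0.90 at 12 h and by 1.82 at 24 h (limma, adjusted p = 0.0137 and 1.42e-05 over 21789 probe sets), and higher in 3 of 3 same-number pairs each time. The probe set that stood for the gene differed by 0.15 and 0.36.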

How the results depend on the processing

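Of the changes of single genes under the alternatives, 1649 were counted as the same, 77 lost a call, 17 gained one and 0 called values reversed. The same means that a tested value kept its side of the threshold, which includes values called in neither fit, such as those of Ldb1. Of 18 alternatives each, the 24 h calls of Lyl1, Zfpm1 and Gata1 were lost under 8, 7 and 5. The 12 h call of Lmo2 was lost under 2, while its 24 h call and the 12 h call of Zfpm1 were kept under all. For the 6 h differences, which were not tested, it means a shift smaller than the gene's SD in the main fit. A change of sign in a value called in neither fit is not counted as reversed, so the 1649 did not all keep their direction. At 6 h, against replicate 1 of the day 2.5 controls, Lmo2 moved to 0.49, Lyl1 to 0.10 and Tcf12 to -0.30. With the replicate block, 441 genes were called at 12 h (277 without it), 163 for the change of the effect (85), 344 between the controls (151), where Zfpm1 made 1 of the 8 genes called, and 742 from 12 h to 24 h of induction (360), where Lmo2 made 1; the block changed no other call of the 8 genes. Quantile normalization again gave 139 genes for the change of the effect. It also gave 1 of the 8 genes (Zfpm1) between the controls, as did median centring and leaving out dim genes. The mean of the probe sets gave 1 (Cbfa2t3) from 12 h to 24 h. With only the compared groups, 2 of the 8 (Lmo2 and Gata1) and 669 genes (1088 in the shared fit) were called at 24 h, 1 of the 8 (Zfpm1) between the controls and 100 genes from 12 h to 24 h. With array weights, whose estimation stopped early in some fits, 1885 genes were called at 12 h, 1 of the 8 (Lmo2) and 467 genes at 24 h, 48 for the change of the effect, 2 of the 8 (Zfpm1 and Tcf12) and 1350 genes between the controls and 89 from 12 h to 24 h. Leaving out a replicate or an array left 1 to 2 of the 8 genes and 80 to 222 genes called at 12 h, 1 to 4 and 392 to 1889 at 24 h, 2 to 109 genes for the change of the effect, 17 to 189 between the controls, 21 to 727 from 12 h to 24 h, and 0 to 380 between the lines. The 380 came without replicate 2, and 1889 and 727 without induced 24 h replicate 1. The cause of these shifts was not tested, beyond the smaller number of arrays. The lines could not be compared without replicate 3 or with the replicate block. The median change of all genes stayed within 0.04 under both rescalings (quantile normalization again, median centring). With 3 arrays a group and controls of Gata1 and the second Cbfa2t3 probe set at low signal, small changes of the 8 genes were not detectable.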
